A study of Mus musculus with 10 samples.

Results

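Gatad2a, Gatad2b, Cdk2ap1 and Cdk2ap2 encode 4 subunits, in 2 pairs of paralogues, of the nucleosome remodelling and deacetylase (NuRD) complex. The 4 genes were taken by name from the 31053 genes of the single-cell RNA-seq (scRNA-seq) tables of mouse cortex. Their unique molecular identifier (UMI) counts were summed within each embryo, over all cells and over cell classes recognised by marker genes, in the 65779 cells that had at least 1000 UMIs and at most 10% of UMIs from mitochondrial genes.

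NuRD joins an ATP-dependent nucleosome remodeller, Chd3, Chd4 or Chd5, with the histone deacetylases Hdac1 and Hdac2, and acts mostly at enhancers and promoters whose activity it tunes. Gatad2a and Gatad2b are alternative subunits that bridge the deacetylase module, which also holds the Mbd and Mta proteins, to the remodeller. Cdk2ap1 takes its present name from binding the cyclin-dependent kinase Cdk2 and is also a stable NuRD subunit, and Cdk2ap2 is its paralogue. In the developing cortex the remodeller subunit is exchanged as progenitors give rise to neurons.

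Cortices were collected at E16.5 from C57BL/6N-A tm1Brd mice, with 1 library per embryo, and came from 3 wild-type embryos (WT), 4 heterozygotes for the stop allele of Gatad2b (stop/+, Het) and 3 homozygotes (stop/stop, KO). The stop allele, Gatad2b tm1a(EUCOMM)Hmgu, carries a gene-trap cassette in the intron between the first and the second coding exon, and it is present in every cell, not in 1 cell type. In the gene model the 9 later coding exons lie downstream of that intron, whose end is 14841 bp from the 3′ end of the gene. A 3′ UMI count can therefore record transcripts that begin downstream of the cassette, and a residual count says nothing about protein. The study names splicing past the cassette as another possible source of mRNA. It reports Gatad2b protein in stop/stop mice as undetectable by western blot, with 1 cerebellum per genotype, and absent by immunostaining of cortex. In stop/+ mice it reports lower Gatad2b mRNA than in wild-type mice by RT-qPCR of brain soon after birth. The library names carry 1 of a pair of prefixes, and their meaning is not given in the sources used here. All WT libraries and Het replicate 4 share 1 prefix, and Het replicates 1 to 3 and all KO libraries share the other, so genotype and prefix cannot be told apart for WT against KO except through Het replicate 4.

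Each embryo gave 5147 to 8103 cells and 82872641 to 123737385 UMIs, and each of the 4 genes had 2516 to 15647 UMIs in an embryo. The median cell held 10795 to 14844 UMIs in WT embryos, 13218 to 14860 in the Het group and 14324.5 to 17077.5 in KO embryos, and any pair of libraries shared 4 to 19 cell barcodes. The median mitochondrial share was 3.60 to 3.97% in the 4 libraries of the WT prefix and 4.31 to 4.66% in the 6 others. The 11 classes with 20 or more cells in each embryo entered the tests. They were named for the markers of their clusters, and 5 names need care. The ganglionic eminence-like cluster was led by genes of dividing cells with no marker of its list among its leading 10, and so was the smaller of the 2 subventricular zone-like clusters, which held 5.3 to 9.85% of that class by genotype. The 1 radial glia-like cluster, with 3 radial glia markers among its leading 10 genes, scored higher for the oligodendrocyte precursor list than for its own. The mural-like cluster scored nearly as high for meningeal fibroblast markers, higher for them without integration of embryos, and held the endothelial gene Cldn5 among its leading 10. The microglia-like cluster was also led by S100a8 and S100a9, which are genes of neutrophils. Cells of unnamed clusters, 15.8% of WT, 11.8% of Het and 11.2% of KO cells, and endothelial-like cells, of which Het replicate 3 had 342 and the other embryos 11 to 55, were not tested as classes. In sums over all cells, a change in the share of a class and a change within its cells cannot be told apart. Shares of cells and levels within classes are therefore also given below.

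On GRCm38 (mm10), Gatad2a (ENSMUSG00000036180) spans chromosome 8, 69907076 to 69996384, on the minus strand, and the coding model used for it has 12 exons. Gatad2b (ENSMUSG00000042390) spans chromosome 3, 90293178 to 90363407, on the plus strand, with 11 exons, and the trapped intron covers 90341995 to 90348566. Cdk2ap1 (ENSMUSG00000029394) lies on the minus strand of chromosome 5 from 124345417 to 124363082, and Cdk2ap2 (ENSMUSG00000024856) on the plus strand of chromosome 19 from 4097182 to 4099019, with 4 exons each. The promoters of the 4 genes are shown because 3 of them had higher counts in KO embryos, and so that paralogues can be read side by side. Each run is the RefSeq sequence of GRCm38.p6 from 250 bases before to 50 after an annotated start, on the gene's own strand, at chr8:69996335-69996634 (minus), chr3:90292931-90293230 (plus), chr5:124354579-124354878 (minus) and chr19:4097101-4097400 (plus). Capitals mark CCAAT and GGGCGG on either strand (ATTGG and CCGCCC when reversed).
Gatad2a promoter: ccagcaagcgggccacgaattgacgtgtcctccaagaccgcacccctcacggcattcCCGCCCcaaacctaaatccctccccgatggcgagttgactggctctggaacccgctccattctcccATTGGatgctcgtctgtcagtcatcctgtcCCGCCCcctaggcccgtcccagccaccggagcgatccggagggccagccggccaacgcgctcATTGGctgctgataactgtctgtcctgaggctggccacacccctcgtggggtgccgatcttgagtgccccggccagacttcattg
Gatad2b promoter: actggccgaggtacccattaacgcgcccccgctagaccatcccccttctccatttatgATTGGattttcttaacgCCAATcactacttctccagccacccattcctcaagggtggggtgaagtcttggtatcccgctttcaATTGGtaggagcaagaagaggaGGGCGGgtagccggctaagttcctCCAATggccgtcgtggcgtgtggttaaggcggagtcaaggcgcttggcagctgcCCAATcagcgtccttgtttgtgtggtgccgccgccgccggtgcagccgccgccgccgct
Cdk2ap1 promoter: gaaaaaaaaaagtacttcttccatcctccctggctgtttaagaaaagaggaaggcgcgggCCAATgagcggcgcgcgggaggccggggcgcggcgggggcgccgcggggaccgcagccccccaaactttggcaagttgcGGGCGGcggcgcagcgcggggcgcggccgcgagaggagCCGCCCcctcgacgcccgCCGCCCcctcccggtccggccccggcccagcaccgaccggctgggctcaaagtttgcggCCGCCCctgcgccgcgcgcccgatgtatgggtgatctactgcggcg
Cdk2ap2 promoter: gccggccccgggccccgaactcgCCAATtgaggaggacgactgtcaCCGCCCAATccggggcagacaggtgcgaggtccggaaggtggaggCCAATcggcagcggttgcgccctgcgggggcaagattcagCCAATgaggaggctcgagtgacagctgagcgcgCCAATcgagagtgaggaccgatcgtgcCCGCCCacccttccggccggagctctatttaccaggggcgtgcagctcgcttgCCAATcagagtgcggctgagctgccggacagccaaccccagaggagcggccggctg

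CCAAT, the letters read by the NF-Y factor, occurred 2 times in the Gatad2a window, 5 times in Gatad2b, 1 time in Cdk2ap1 and 6 times in Cdk2ap2. GGGCGG, the core of the GC box, occurred 2 times in Gatad2a, 1 time in Gatad2b, 4 times in Cdk2ap1 and 2 times in Cdk2ap2, where 1 of its matches overlaps a CCAAT. Among 32851 promoter windows of that length, 37.4% held CCAAT and 35.7% held GGGCGG at least once. The Cdk2ap1 window stood out for its 43 CpG dinucleotides, more than in 97.4% of windows, beside 21 in Gatad2a, 22 in Gatad2b, 28 in Cdk2ap2 and a median of 7. A match of letters is a description and not a bound site.

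The targeted gene was examined first. Over all cells, Gatad2b stood at 139.2, 130.7 and 133.5 counts per 1000000 (CPM, scaled by the trimmed mean of M-values, TMM) in the WT embryos. The Het embryos had 94.2, 89.8, 90.0 and 95.7 CPM, and the KO embryos 50.9, 52.8 and 57.3 CPM. The 3 genotypes did not overlap, and every library sat at the level of its label. The fall was graded, to 68.7% of the WT mean in Het and 39.9% in KO, with a log2 fold change of -0.54 (SE 0.045, adjusted p = 0.000756) for Het and -1.32 (SE 0.0498, adjusted p = 1.11e-07) for KO by the edgeR quasi-likelihood test. Calls here and later need both an adjusted p below 0.05 and a log2 fold change beyond 0.25 in size.

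Gatad2a, the paralogue that could take the same place in the complex, was higher in KO. It had 49.8, 48.7 and 52.4 CPM in WT, 53.6, 52.3, 53.7 and 59.4 CPM in Het, and 72.6, 64.9 and 68.0 CPM in KO. All KO embryos lay above all Het embryos, while Het replicate 2 lay within the WT range. KO exceeded WT by 0.45 on the log2 scale (SE 0.056, adjusted p = 0.000214) and Het by 0.32 (adjusted p = 0.00373), whereas Het against WT was 0.12 (95% interval 0.01 to 0.24, adjusted p = 0.167) and did not pass. Without Het replicate 4, the highest Het embryo, it was 0.08 (adjusted p = 0.231). Of the 17647 genes tested, 24.5% were called in KO against WT, 12% higher and 12.5% lower, so a call of this kind was common. In KO against Het 5.5% of genes were called. Groups whose embryos did not overlap were also common, at 52.7% of genes for KO against WT, 20.3% for KO against Het and 19.8% for Het against WT.

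Cdk2ap1 was higher in KO than in WT, and 1 Het embryo stood apart from the others. With prefix as a covariate the KO difference was 0.35 and was not called (adjusted p = 0.166), below that of Gatad2a (0.60). Its WT embryos had 78.1, 82.8 and 69.2 CPM, and its KO embryos 145, 182 and 152 CPM. Het replicates 1 to 3 had 134.7, 124.5 and 131.6 CPM, but Het replicate 4 had 79.9 CPM, inside the WT range. The mean was 76.7 ± 6.94 CPM (SD, n = 3) in WT, 117.7 ± 25.5 (n = 4) in Het and 159.8 ± 19.6 (n = 3) in KO. KO against WT came to a log2 fold change of 1.06 (SE 0.166, adjusted p = 0.000785). Het against WT came to 0.62 (SE 0.156, adjusted p = 0.0482), a call that needed each embryo except Het replicate 4. It was lost without any 1 of the 9 embryos other than Het replicate 4 (0.54 to 0.67, adjusted p = 0.0579 to 0.153), and without Het replicate 4 it stood at 0.76 (adjusted p = 0.00051).

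Cdk2ap2 was also higher in KO than in WT, with a smaller span than its paralogue, but did not separate KO from Het replicates 1 to 3. It had 26.0, 27.6 and 25.2 CPM in WT, 32.0, 31.9, 32.4 and 27.6 CPM in Het replicates 1 to 4, and 33.5, 33.1 and 30.2 CPM in KO. Het replicate 4 again sat at the top of the WT range, below the 3 other Het embryos. KO exceeded WT by 0.30 on the log2 scale (SE 0.065, adjusted p = 0.00503), Het against WT was 0.24 and met neither criterion of a call (adjusted p = 0.0507), though without Het replicate 4 it was called (0.29, adjusted p = 0.00237), and KO against Het was 0.06 (95% interval -0.07 to 0.19, adjusted p = 0.61). With prefix as a covariate the difference of KO from WT was 0.08 and was not called.

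**Figure D1:**
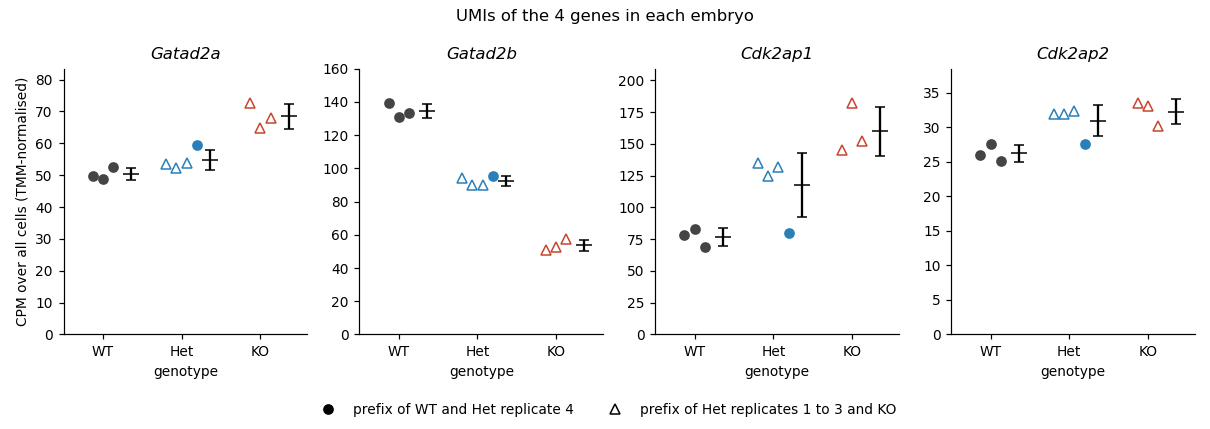
TMM-scaled CPM over all cells of the 4 genes in each embryo (points; Het replicate 4 is marked), with group means and SD, by genotype. Gatad2b falls in steps from WT through Het to KO, Gatad2a is higher in the 3 KO embryos, and for Cdk2ap1 and Cdk2ap2 the Het replicate 4 point, at 79.9 and 27.6 CPM, sits with WT.

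Het replicate 4 is the 1 library that separates genotype from prefix, so the 4 genes were compared along each axis in a fit with Het replicate 4 as a group of its own. As a lone sample it was assumed to vary like the other groups. Against WT within its prefix, Gatad2b was lower by 0.49 on the log2 scale (adjusted p = 0.0289) beside 0.54 for the Het group as a whole. Gatad2a differed by 0.24 (95% interval 0.10 to 0.38, adjusted p = 0.178), Cdk2ap1 by 0.06 (95% interval -0.20 to 0.32, adjusted p = 0.903) and Cdk2ap2 by 0.07 (95% interval -0.07 to 0.21, adjusted p = 0.742). Gatad2b alone of the 4 passed in that contrast, in which 0.232% of genes were called.

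Within the other prefix, KO was compared with Het replicates 1 to 3. Gatad2b fell by 0.77 (adjusted p = 2.78e-05) and Gatad2a rose by 0.37 (SE 0.044, 95% interval 0.27 to 0.46, adjusted p = 0.000963). Cdk2ap1 was higher by 0.29 (95% interval 0.11 to 0.48), which missed the threshold in this fit (adjusted p = 0.0568) and passed it in a fit of those 6 embryos alone (adjusted p = 0.0435, with 6.14% of genes called), and Cdk2ap2 differed by 0.01 (adjusted p = 0.934). The background in this contrast was 5.88% of genes called.

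Between Het libraries of the 2 prefixes, which share a genotype, Cdk2ap1 was higher in replicates 1 to 3 than in replicate 4 by 0.70 (SE 0.125, 95% interval 0.43 to 0.98, adjusted p = 0.0206), and 3.48% of genes were called. Cdk2ap2 was higher there by 0.22 (adjusted p = 0.084), and Gatad2a and Gatad2b differed by -0.16 (adjusted p = 0.164) and -0.07 (adjusted p = 0.592). With prefix as a covariate, KO against WT stood at 0.60 for Gatad2a (adjusted p = 0.00133) and -1.26 for Gatad2b (adjusted p = 4.69e-05), both called, among 8.31% of genes called. Under the same covariate Cdk2ap1 was 0.35 (95% interval 0.03 to 0.68, adjusted p = 0.166) and Cdk2ap2 0.08 (95% interval -0.10 to 0.25, adjusted p = 0.595), and neither was called. The 0.70 of Cdk2ap1 within Het rests on 1 embryo on 1 side, in which embryo and prefix cannot be told apart.

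**Figure D2:**
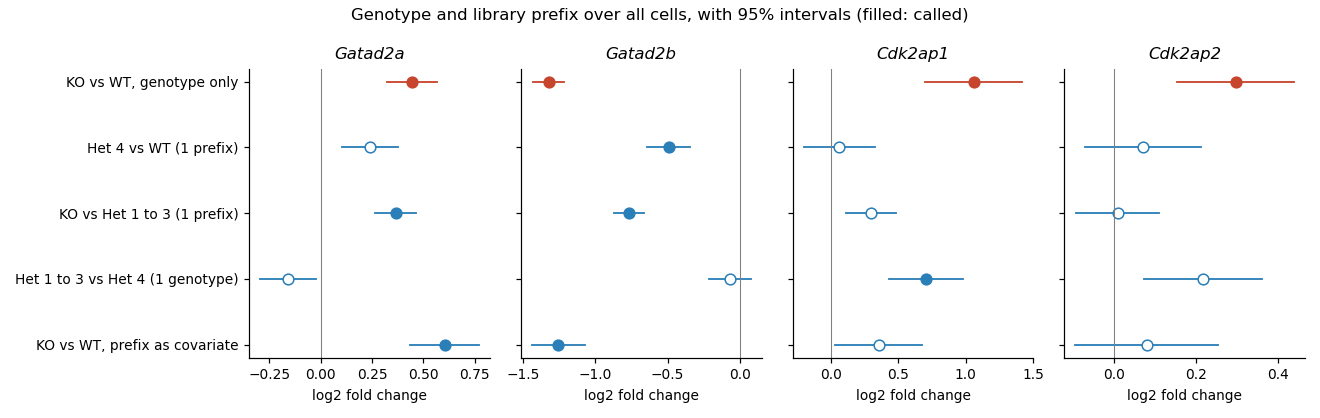
Log2 fold change with its 95% interval for each of the 4 genes in these contrasts: KO against WT by genotype only, Het replicate 4 against WT and KO against Het replicates 1 to 3, each within 1 library prefix, Het replicates 1 to 3 against Het replicate 4, and KO against WT with prefix as a covariate. Gatad2b and Gatad2a move with genotype within the KO prefix, and the interval of Cdk2ap1 between Het libraries of the 2 prefixes, 0.43 to 0.98, lies above 0.

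Paralogue sums show how the rise of Gatad2a compares in size with the loss of Gatad2b. Gatad2a plus Gatad2b came to 184.8 ± 4.89 CPM (SD, n = 3) in WT, 147.1 ± 5.78 (n = 4) in Het and 122.2 ± 4.03 (n = 3) in KO, with no overlap between genotypes. The KO mean of Gatad2a was 18.2 CPM above that of WT while that of Gatad2b dropped by 80.8 CPM, so the sum stood at 66.1% of WT in KO and at 79.6% in Het. These are 3′ UMI counts that are not scaled to transcript length or protein. The corresponding sum of Cdk2ap1 and Cdk2ap2 was 103.0 CPM in WT, 148.7 in Het and 192.1 in KO.

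Among WT classes each gene had its own order, given here as plain CPM of a class. Cdk2ap1 was the most graded: subventricular zone-like cells, the intermediate progenitors, had 253 ± 16.3 CPM (SD, n = 3), ganglionic eminence-like cells 144 ± 12.8, radial glia-like cells 120 ± 12.3 and layer II-IV-like neurons 92.9 ± 8.25. Each of these 4 steps was free of overlap between embryos, and layer V-VI-like neurons followed at 56.1 ± 2.05 CPM. The layer II-IV-like value pools clusters that differed. Its cluster 1, at 121 CPM (109.9 to 137.2), overlapped radial glia-like cells (106.3 to 127.7). Its cluster 12, at 49.8 CPM (47.3 to 52.7), lay below layer V-VI-like cells (54.6 to 58.5). Striatal inhibitory-like and interneuron-like cells had 35.6 and 28.6 CPM and overlapped each other.

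Gatad2a was also highest outside the neurons, with 96.2 ± 17.3 CPM in mural-like, 81.1 ± 3.68 in radial glia-like and 71.2 ± 6.30 in ganglionic eminence-like cells, neighbours that overlapped. Layer I-like neurons, at 63.5 ± 4.96 CPM, overlapped ganglionic eminence-like cells and averaged above subventricular zone-like cells (59.5 ± 8.83). Gatad2a fell to 55.2 ± 1.47 CPM in layer II-IV-like, 47.1 ± 5.21 in layer V-VI-like, 34.5 ± 1.28 in interneuron-like and 33.7 ± 1.03 in striatal inhibitory-like cells. Of these pooled values the last pair overlapped. The layer V-VI-like value pools clusters that differed. Its cluster 7, at 60.3 CPM (57.7 to 63.2), lay above layer II-IV-like cells (53.7 to 56.6). Its cluster 8 had 47.3 CPM, and its cluster 5, at 30.7 CPM (29.0 to 33.6), overlapped interneuron-like cells (33.2 to 35.8). Gatad2b, read over pooled classes, stepped down more gradually. Its means ran from 147.7 CPM in layer II-IV-like through 147.6 in striatal inhibitory-like, 147.2 in ganglionic eminence-like and 145.0 in subventricular zone-like cells to 97.6 in microglia-like cells, and every step between neighbours among these 10 classes overlapped. Its ends did not. Radial glia-like cells at 116.9 ± 2.32 CPM and layer I-like cells at 100.2 ± 12.8 CPM lay below the pooled layer II-IV-like value in every embryo. Within the layer II-IV-like class, however, cluster 12, at 118.8 CPM (115.9 to 120.4), overlapped radial glia-like cells (114.5 to 119.2). The interneuron-like value of Gatad2b pools cluster 14 at 79.7 CPM (78.4 to 81.1) and cluster 10 at 161.3 CPM (154.2 to 175.2), among others. Cdk2ap2 was highest in microglia-like (60.6 ± 12.4 CPM), layer I-like (48.3 ± 4.6) and radial glia-like cells (45.1 ± 8.80) and lowest, erythroid aside, in ganglionic eminence-like cells (22.8 ± 2.16). The paralogues therefore did not share an order, since ganglionic eminence-like cells had rank 2 of 11 classes for Cdk2ap1 and, for Cdk2ap2, fell among ranks 6 to 10, whose neighbours overlapped.

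Erythroid-like cells were at the bottom for each of the 4 genes, with 7.01 CPM of Gatad2a, 11.2 of Gatad2b, 6.82 of Cdk2ap1 and 1.82 of Cdk2ap2, and each was separated from the class above. Such cells hold mostly globin mRNA, and their levels are read here as background.

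**Figure D3:**
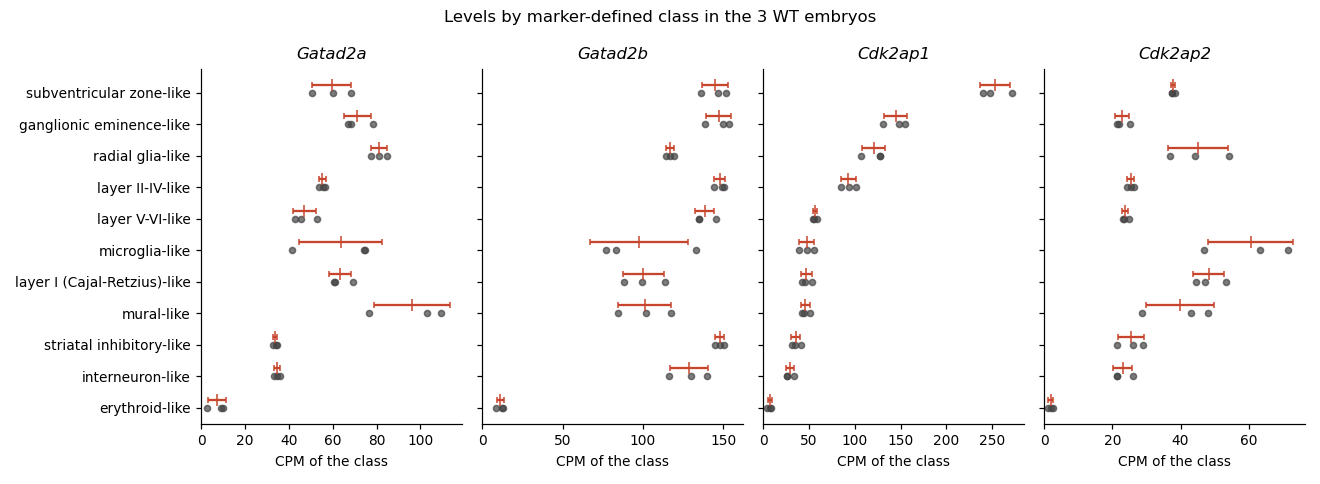
CPM of the 4 genes in the 3 WT embryos (points) with class means, for the 11 tested classes. Cdk2ap1 steps down from 253 CPM in subventricular zone-like cells to 28.6 CPM in interneuron-like cells, Gatad2b runs from 147.7 CPM in layer II-IV-like to 100.2 CPM in layer I-like cells among neuron-like and progenitor-like classes, and all 4 genes are lowest in erythroid-like cells.

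Within classes, Gatad2b was lower in mutants throughout. Fitted class by class, it was called lower in 6 of 11 classes in Het and in 9 of 11 in KO. Het replicate 4 against WT, all of the WT prefix, was called in 2 of 11, layer II-IV-like (-0.48, adjusted p = 0.00291) and layer V-VI-like cells (-0.56, adjusted p = 0.0281), and KO with prefix as a covariate in 8 of 11, the mural-like call being lost (-1.15, adjusted p = 0.908). Without that covariate the exceptions in KO were erythroid-like and microglia-like cells, in which it was -1.62 (adjusted p = 0.103) and -2.30 (adjusted p = 0.0749). Of all genes tested in a class, the share called in KO against WT was 30.2% in layer II-IV-like, 22.8% in layer V-VI-like, 19.5% in radial glia-like, 17.7% in subventricular zone-like, 14.1% in striatal inhibitory-like, 8.86% in interneuron-like, 7.87% in ganglionic eminence-like, 5.55% in layer I-like, 3.08% in erythroid-like, 1.52% in microglia-like and 0.286% in mural-like cells. In Het against WT it was 6.57% in layer II-IV-like, 1.56% in radial glia-like, 1.16% in striatal inhibitory-like, 0.995% in layer V-VI-like, 0.246% in subventricular zone-like, 0.182% in ganglionic eminence-like, 0.142% in layer I-like and 0.0106% in mural-like cells, and 0 in the other classes. In layer V-VI-like neurons WT embryos had 145, 135 and 135 CPM and KO embryos 39.7, 45.4 and 47.3 CPM, a log2 fold change of -1.60 (SE 0.06). The Het calls in layer II-IV-like and layer V-VI-like cells held with each embryo left out. The 4 other Het calls, in ganglionic eminence-like, radial glia-like, striatal inhibitory-like and subventricular zone-like cells, were all lost without WT replicate 1 (-0.49, -0.36, -0.33 and -0.43, adjusted p = 0.0881 to 0.146). Those in radial glia-like, striatal inhibitory-like and subventricular zone-like cells were also lost without WT replicate 2 or WT replicate 3 (-0.49 to -0.32, adjusted p = 0.0543 to 0.125) and without some of the others (-0.47 to -0.29, adjusted p = 0.0502 to 0.118), which were Het replicate 1, Het replicate 3 and KO replicate 1 for radial glia-like, Het replicate 2 for striatal inhibitory-like, and Het replicates 2 and 3 and KO replicates 1 and 2 for subventricular zone-like cells. The KO call in mural-like cells was lost without WT replicate 1, WT replicate 3 or KO replicate 1 (-1.41 to -1.34, adjusted p = 0.0578 to 0.103). Striatal inhibitory-like neurons kept more, with 148, 145 and 150 CPM in WT and 78.9, 78.2 and 85.2 CPM in KO, a change of -0.84 (SE 0.071).

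The difference of the KO effect between classes was tested against layer II-IV-like neurons, in which Gatad2b changed by -1.40 (SE 0.055). Gatad2b fell less in striatal inhibitory-like cells by 0.56 (SE 0.069, adjusted p = 1.3e-05), in interneuron-like cells by 0.39, in ganglionic eminence-like cells by 0.33 and in subventricular zone-like cells by 0.27, and each of these passed the test of the difference. In those tests 4.07% (layer I-like) to 12.1% (radial glia-like) of all genes were called, with 5.79% in ganglionic eminence-like, 5.85% in interneuron-like, 7.65% in striatal inhibitory-like, 8.85% in subventricular zone-like and 9.99% in layer V-VI-like cells. Layer V-VI-like cells fell further by 0.19 (adjusted p = 0.0183), which is under the fold threshold.

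Gatad2a rose in KO in 4 neuron-like classes and not in all. Its log2 fold change against WT was positive in 8 of the 10 classes in which it could be fitted. The KO mean was below the WT mean in microglia-like (39.8 and 63.5 CPM) and mural-like cells (82.0 and 96.2 CPM). Gatad2a was called higher in 4 of the 10 classes, layer II-IV-like by 0.52 (SE 0.062, adjusted p = 1.72e-05), layer V-VI-like by 0.51 (adjusted p = 0.000548), striatal inhibitory-like by 0.49 (adjusted p = 0.000966) and interneuron-like by 0.46 (adjusted p = 0.0108). Layer I-like neurons, at 0.35 (SE 0.147, adjusted p = 0.171), did not pass, and their embryos overlapped, with 60.4 to 69.2 CPM in WT and 68.5 to 96.9 CPM in KO. In layer II-IV-like neurons the embryos had 55.5, 53.7 and 56.6 CPM in WT, 57.6, 56.8, 59.5 and 66.7 CPM in Het and 80.0, 71.9 and 79.5 CPM in KO, so KO stood apart from both other genotypes. In radial glia-like cells they had 81.1, 77.4 and 84.8 CPM in WT against 80.4, 76.3 and 88.6 CPM in KO, and in ganglionic eminence-like cells 68.1, 67.1 and 78.5 CPM against 69.8, 71.5 and 73.7 CPM, and the genotypes overlapped in both. The progenitor effects were 0.07 (SE 0.094, adjusted p = 0.64) in radial glia-like and 0.06 (SE 0.087, adjusted p = 0.726) in ganglionic eminence-like cells, and they were smaller than in layer II-IV-like neurons by 0.43 (SE 0.093, adjusted p = 0.00297) and 0.45 (SE 0.088, adjusted p = 0.00405) in the test of the difference. Subventricular zone-like cells lay between, at 0.24 (adjusted p = 0.139), and their difference from layer II-IV-like neurons, -0.26, did not pass (adjusted p = 0.0884). These class differences set KO against WT and so also cross the prefix. Within the KO prefix, KO against Het replicates 1 to 3 gave 0.42 in layer II-IV-like, 0.36 in subventricular zone-like, 0.17 in radial glia-like and 0.06 in ganglionic eminence-like cells.

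In Het, Gatad2a was called in 0 of 10 classes by edgeR, with 2 at an unadjusted p under 0.05, and in 0 by DESeq2. In KO against Het replicates 1 to 3, which share a prefix, it was called in layer II-IV-like (0.42, adjusted p = 3.5e-05) and layer V-VI-like neurons (0.41, adjusted p = 0.00366), and the same 2 classes were called in KO against WT with prefix as a covariate (0.71 and 0.68). That covariate took the calls from interneuron-like (0.53, adjusted p = 0.332) and striatal inhibitory-like cells (0.48, adjusted p = 0.144). The uncalled values became 0.64 in layer I-like, 0.52 in subventricular zone-like (adjusted p = 0.107), 0.25 in radial glia-like (adjusted p = 0.457) and 0.12 in ganglionic eminence-like cells. Of all genes, 12.3% and 8.51% were called in those classes within the KO prefix, and 15.9% and 7.82% with the covariate. Het replicate 4 exceeded WT in layer II-IV-like neurons by 0.29 (adjusted p = 0.0427), the only class of 10 called, with 1.65% of genes called there.

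**Figure D4:**
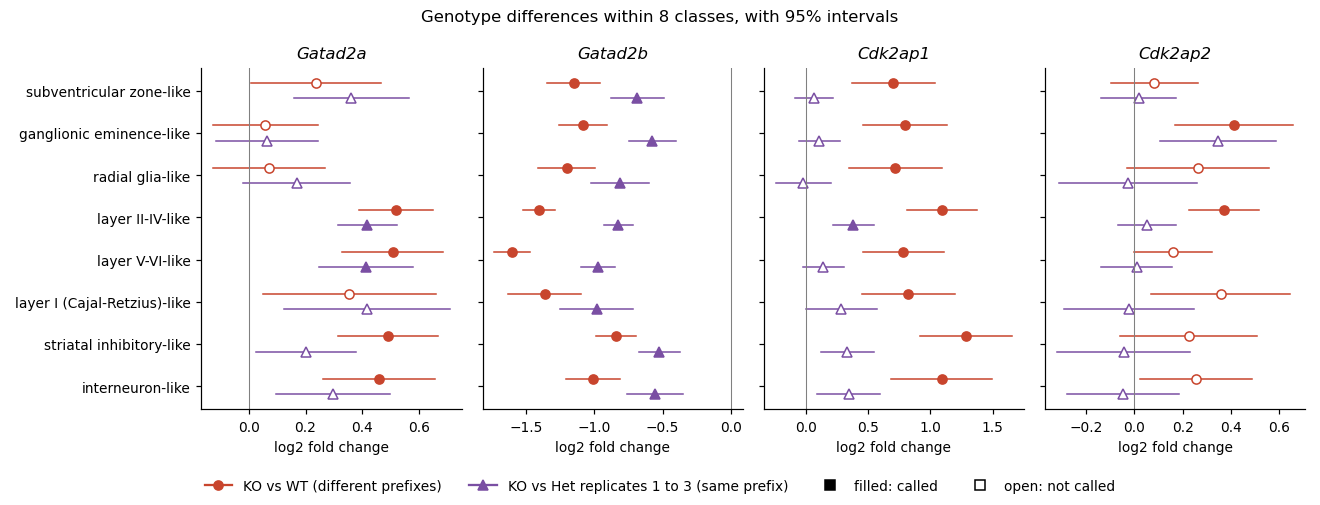
Log2 fold change of each gene with its 95% interval in the neuron-like and progenitor-like classes. KO is set against WT and against the Het embryos that share the library prefix of KO. Against WT, KO intervals of Gatad2a lie above 0 in the 4 called classes, layer II-IV-like, layer V-VI-like, striatal inhibitory-like and interneuron-like, and in the uncalled layer I-like and subventricular zone-like cells. They span 0 in radial glia-like and ganglionic eminence-like cells.

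Cdk2ap1 was called higher in KO in 8 of 11 classes, which are the 8 neuron-like and progenitor-like ones, with 1.28 (SE 0.177) in striatal inhibitory-like, 1.09 (SE 0.132) in layer II-IV-like, 1.09 in interneuron-like and 0.70 (SE 0.157) in subventricular zone-like cells. In Het it was called in 2 classes, layer II-IV-like (0.59, adjusted p = 0.0115) and striatal inhibitory-like (0.77, adjusted p = 0.0343). Leaving out 1 embryo ended the Het call in layer II-IV-like cells without WT replicate 3 (0.52, adjusted p = 0.0657) and in striatal inhibitory-like cells without each WT embryo, each of Het replicates 1 to 3 or KO replicate 3 (0.65 to 0.89, adjusted p = 0.054 to 0.19). It ended the KO call in radial glia-like cells without WT replicate 3 (0.62, adjusted p = 0.056) or KO replicate 2 (0.61, adjusted p = 0.0521), and in layer I-like cells without KO replicate 2 (0.65, adjusted p = 0.0632). Subventricular zone-like cells had 248, 272 and 240 CPM in WT, 379, 390 and 389 CPM in Het replicates 1 to 3, 221 CPM in Het replicate 4 and 370, 445 and 381 CPM in KO. Het replicates 1 to 3 overlapped KO in that class, and Het replicate 4 lay below every WT embryo.

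That position of Het replicate 4 recurred. It was below all of Het replicates 1 to 3 in 10 of 11 classes for Cdk2ap1, and at or below the highest WT embryo in 11 of 11, whereas it was below them in 7 of 11 for Cdk2ap2, 1 of 11 for Gatad2b and 0 of 11 for Gatad2a. Within prefixes, Cdk2ap1 was called in 0 of 11 classes for Het replicate 4 against WT, with 0 at an unadjusted p under 0.05, and in 1 class for KO against Het replicates 1 to 3, layer II-IV-like neurons (0.38, SE 0.075, adjusted p = 0.00274). With prefix as a covariate KO against WT was called in layer II-IV-like neurons alone (0.51, adjusted p = 0.0148), and it turned negative in ganglionic eminence-like (-0.02), radial glia-like (-0.14) and subventricular zone-like cells (-0.11). The rise of Cdk2ap1 in KO without the covariate was smaller than in layer II-IV-like neurons by 0.29 in ganglionic eminence-like, 0.31 in layer V-VI-like, 0.35 in radial glia-like and 0.37 in subventricular zone-like cells, and each passed the test of the difference.

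Cdk2ap2 was called higher in KO in layer II-IV-like (0.37, SE 0.068, adjusted p = 0.000637) and ganglionic eminence-like cells (0.41, SE 0.116, adjusted p = 0.0375) and in Het in layer II-IV-like cells (0.27, adjusted p = 0.0179), of 10 classes fitted. The KO call in ganglionic eminence-like cells was lost without WT replicate 1, WT replicate 2, Het replicate 3 or any KO embryo (0.37 to 0.43, adjusted p = 0.0509 to 0.126), with DESeq2 and without integration of embryos. With prefix as a covariate both KO calls were lost, at 0.18 (adjusted p = 0.237) in layer II-IV-like and 0.26 (adjusted p = 0.835) in ganglionic eminence-like cells. The Het call was lost without WT replicate 1, WT replicate 3 or Het replicate 1 (0.24 to 0.28, adjusted p = 0.0598 to 0.0867). In KO against Het replicates 1 to 3 it was called in 0 of 10, with 2 at an unadjusted p under 0.05. In microglia-like cells, of which each embryo had 21 to 44, WT embryos had 71.5, 63.3 and 47.0 CPM and KO embryos 108.5, 131.6 and 142.6 CPM, which did not overlap but missed the threshold (log2 fold change 1.21, adjusted p = 0.051).

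**Figure D5:**
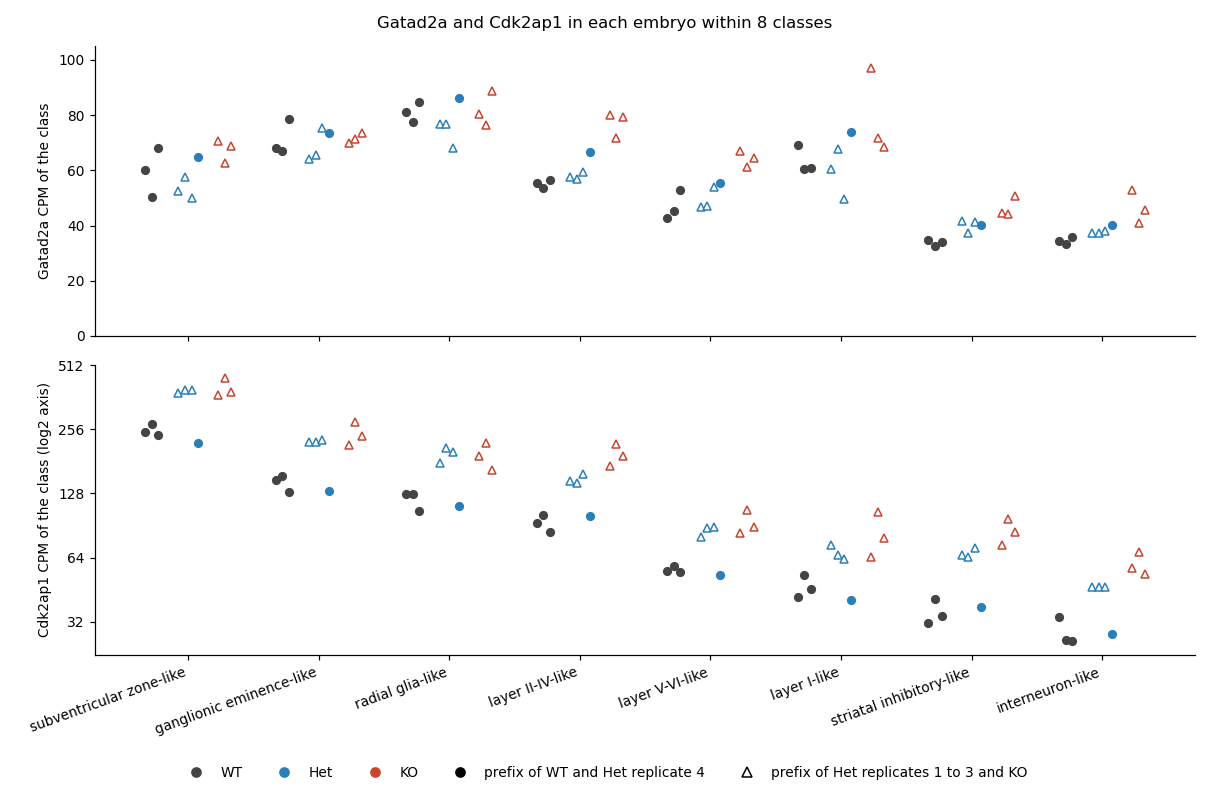
CPM per embryo of Gatad2a (linear axis) and Cdk2ap1 (log2 axis) in the neuron-like and progenitor-like classes, with Het replicate 4 marked. Gatad2a separates KO from WT in layer II-IV-like neurons and not in radial glia-like cells, and Cdk2ap1 of Het replicate 4 is at or below the highest WT embryo in each class, for example at 221 CPM in subventricular zone-like cells.

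The layer II-IV-like class joins 3 clusters whose proportions moved with genotype, so levels were also read within clusters. Cluster 0 made up 52.5% of the class in WT and 42.6% in KO, cluster 1, led by genes of younger migrating neurons such as Unc5d and Nrp1, 35.1% and 50.6%, and cluster 12 the remaining 12.4% and 6.79%. Gatad2a averaged 53.7, 58.2 and 70.9 CPM in WT, Het and KO in cluster 0, and 60.8, 69.5 and 89.6 CPM in cluster 1. In cluster 12 it averaged 51.6, 47.5 and 55.0 CPM, with every KO embryo above every Het embryo and WT overlapping both. Cdk2ap1 averaged 92.5, 128 and 162 CPM in cluster 0, 121, 185 and 255 CPM in cluster 1 and 49.8, 67.9 and 83.4 CPM in cluster 12, so a higher KO mean was present in each cluster.

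Shares of cells also moved. Subventricular zone-like cells, in which Cdk2ap1 was highest, were 3.53% of cells in WT, 5.01% in Het and 6.77% in KO, and ganglionic eminence-like cells 3.02%, 4.25% and 5.57%. To take cell shares out of the all-cell values, log2(CPM + 1) was averaged with equal weight over the 11 classes. The mean difference from WT was then -0.66 in Het and -1.58 in KO for Gatad2b, 0.34 and 0.56 for Cdk2ap1, and 0.19 and 0.23 for Cdk2ap2. In Het, Gatad2b and Cdk2ap2 did not overlap WT (exact permutation p = 0.0286 for each, two-sided), while Cdk2ap1 did (exact permutation p = 0.143). With doublets removed Cdk2ap2 in Het stood at 0.051 and overlapped WT (exact permutation p = 0.971), and Cdk2ap1 stood at 0.20 (exact permutation p = 0.657). In KO each of the 3 genes was free of overlap with WT (exact permutation p = 0.1). Such separation was common over all cells, at 52.7% of genes for KO against WT and 19.8% for Het against WT. No share over all genes was computed for this average. For Gatad2a the equal-weight difference was -0.10 in Het (exact permutation p = 0.286, two-sided) and -0.03 in KO (exact permutation p = 0.8), the sparse microglia-like, mural-like and erythroid-like classes counting as much as the neurons. The Het value was -0.24 with doublets removed, -0.05 without WT replicate 1, -0.18 without WT replicate 2 and -0.06 without Het replicate 2. Over the 8 neuron-like and progenitor-like classes alone, an average added after the data were seen, Gatad2a was 0.05 in Het (exact permutation p = 0.571) and 0.29 in KO with no overlap (exact permutation p = 0.1). The same average gave -0.48 and -1.24 for Gatad2b, 0.49 and 0.86 for Cdk2ap1, and 0.16 and 0.22 for Cdk2ap2 in Het and KO. The smallest p that these designs allow is 0.0286 for 4 against 3 embryos and 0.1 for 3 against 3, so KO against WT cannot pass 0.05 in this test.

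Detection, the share of cells with at least 1 UMI, was read after each cell was thinned to 5000 UMIs, which left out 4330 WT, 2679 Het and 1523 KO cells of lower depth. Gatad2b was detected in 48.1 ± 0.80% of WT cells (SD, n = 3), 36.3 ± 1.21% of Het cells (n = 4) and 24.2 ± 1.57% of KO cells (n = 3). Gatad2a was detected in 20.6%, 21.6% and 26.3%, with WT (19.9 to 21.8%) and Het (20.9 to 23.1%) overlapping, Cdk2ap1 in 28.1%, 36.4% and 46.2%, and Cdk2ap2 in 11.8%, 13.5% and 13.9% of cells. Unthinned, the shares were 41.0%, 47.0% and 54.9% for Gatad2a, 71.0%, 65.8% and 51.8% for Gatad2b, 46.9%, 59.8% and 69.1% for Cdk2ap1, and 27.5%, 33.9% and 36.6% for Cdk2ap2, at median depths of 11889, 14636.5 and 14544 UMIs. Thinned to 3000 UMIs instead, they were lower, at 13.0%, 13.5% and 16.8% for Gatad2a, 32.8%, 23.7% and 15.4% for Gatad2b, 18.3%, 25.2% and 32.3% for Cdk2ap1, and 7.49%, 8.49% and 8.94% for Cdk2ap2, with the genotype means in the same order. In WT erythroid-like cells, with a median of 8382.5 UMIs, the thinned shares were 1.60% for Gatad2a, 3.26% for Gatad2b, 2.29% for Cdk2ap1 and 0.271% for Cdk2ap2, well under those of all cells.

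Of 13 further NuRD subunits tested, 1 was called higher in Het, where 2.98% of all genes were called (525 genes, 74 to 1829 with 1 embryo left out), and 2 were higher and 1 lower in KO, where 24.5% were. The subunits had a median log2 fold change of 0.04 in Het and 0.09 in KO beside medians of 0.00 and -0.01 over all genes. Hdac1, a catalytic deacetylase, was graded like Gatad2b but upward, with 33.1, 33.6 and 34.0 CPM in WT, 41.3, 38.6, 38.7 and 41.9 CPM in Het and 48.7, 49.7 and 48.0 CPM in KO. The 3 genotypes of Hdac1 did not overlap, its log2 fold change was 0.26 in Het (adjusted p = 0.00857) and 0.54 in KO (adjusted p = 6.98e-06), and Het replicate 4 lay with the other Het embryos and above WT (0.32, adjusted p = 0.0316). Within the KO prefix Hdac1 was also called, at 0.30 above Het replicates 1 to 3.

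Mbd2, the methyl-CpG-binding subunit that defines 1 form of the complex, rose in KO by 0.26 (adjusted p = 0.00192), from 27.9, 27.8 and 28.3 CPM in WT to 33.2, 34.5 and 33.0 CPM. Chd5, the remodeller of maturing neurons, was lower in KO by 0.56 (adjusted p = 0.00229), with 72.4, 83.4 and 81.2 CPM in WT and 52.9, 50.5 and 57.7 CPM in KO. Class by class in KO, Hdac1 was called higher in 5 of 10 classes, Hdac2 in 3 of 11, Mbd2 in 2 of 10 and Mta1 in 1 of 9, Chd5 was lower in 4 of 8, Chd4 in 3 of 11 and Rbbp7 in 2 of 11, and Mbd3, Mta2, Mta3, Rbbp4, Kdm1a and Chd3 were called in none. With prefix as a covariate, which rests on Het replicate 4 alone, 5 of the 13 were called higher in KO, Chd3, Chd4, Hdac1, Mbd2 and Kdm1a, and none lower, beside 8.31% of all genes called in either direction. Het replicate 4 had 719.0 CPM of Chd3 and 370.5 CPM of Chd4, above every WT embryo (599.1 to 656.7 and 330.9 to 356.1 CPM), and embryo and prefix cannot be told apart there. Without the covariate KO differed from WT by -0.003 for Chd3 and 0.04 for Chd4, and neither was called. Chd3 and Chd4 were lower in Het replicates 1 to 3 than in Het replicate 4 by 0.31 and 0.28 and were called, beside 3.48% of all genes.

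Cdk2, the kinase that Cdk2ap1 is named for, and its cyclin Ccna2 were higher in KO, by 0.58 and 0.51, and Ccne1 (0.23) and Ccne2 (0.24) were not called, so 2 of 4 genes passed beside 24.5% of all genes. Cdk2 itself was low in these libraries, at 2.89, 3.33 and 2.83 CPM in WT and 4.10, 4.71 and 4.77 CPM in KO. The dividing-cell markers moved beside them, with Mki67 at 0.40, Top2a at 0.45, Mcm5 at 0.34 and Pcna at 0.61 in KO, 4 of 4 called beside the same 24.5%, alongside the larger progenitor shares given above. The part of those shares in the rise of Cdk2ap1 over all cells was not tested apart from the class values. Pcna resembled Cdk2ap1 in its Het embryos, with 39.6, 39.4 and 42.2 CPM in replicates 1 to 3 and 30.1 CPM in replicate 4, against 25.6 to 30.3 CPM in WT. Mki67 did not, since Het replicate 4 had the highest value of the Het embryos, 76.9 CPM beside 56.8 to 69.3 CPM.

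Genes within 200 kb either side of each of the 4 genes were counted to see whether a change was local. In KO against WT, 3 of 21 tested neighbours of Gatad2a were called (Pbx4 0.34, Sugp1 -0.33 and Slc25a42 -0.35), 3 of 20 of Gatad2b (Slc39a1 0.72, Creb3l4 0.40 and Rps27 -0.43), 0 of 11 of Cdk2ap1 and 6 of 26 of Cdk2ap2, of which Aldh3b1 rose by 1.30 and Ptprcap fell by 1.88. Both genes were near the floor, Aldh3b1 at 0.27 CPM in WT and 0.66 in KO, and Ptprcap at 0.28 and 0.078. The shares of neighbours called are at or below the 24.5% of all genes. An antisense gene, 4930537H20Rik, overlaps Gatad2b and had 1.42 CPM in WT, beside a mean of 134.5 CPM for Gatad2b.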

How the data were processed

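Cortices of 10 embryos (3 WT, 4 Het, 3 KO) were profiled with 10x Genomics 3′ scRNA-seq, and groups were taken from the sample titles and genotype labels. The authors deposited 1 matrix of UMI counts per embryo, 80071 barcodes in all, made with Cell Ranger on mm10. The submitters' processing notes name version 6.0.2, and the methods of the study name another release. From these counts, 65779 cells that reached 1000 UMIs with no more than 10% of them mitochondrial were used. Cells were clustered after integration of embryos (Seurat 5.3.0), and clusters were named from marker lists, with naming limits set after the markers of the clusters were seen.

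The UMI counts of an embryo were summed over all cells and per class and tested with the edgeR (4.0.16) quasi-likelihood test on all 10 embryos, with TMM scaling and Benjamini-Hochberg adjustment over all genes that passed a filter on low counts (17647 over all cells). MAST, which the study used on cells, was not used, since cells are not replicates. DESeq2 (1.42.0) was an alternative. Doublets were scored with Scrublet in scanpy 1.11.5. Its own cut-off marked 1.642% of cells in Het replicate 4 and 0 to 0.086% in the other embryos. The 4.799 to 8.306% of highest score that the number of barcodes predicts were therefore removed in an alternative only. Cells were thinned to 5000 UMIs for detection shares, with 3000 UMIs and no thinning as alternatives. Differences between classes were tested as interactions on embryo-by-class sums in edgeR. Equal-weight class means were compared by exact two-sided permutation of embryos. Replicates are separate embryos, and their numbers are not stated to mark litters or days. The scripts were tested on simulated data. Genes named are the 4 genes, 13 further NuRD subunits, Cdk2 with 3 cyclins, 4 dividing-cell markers, neighbours within 200 kb called in KO, and the 3 genes most like each of the 4. The members and lists were chosen with earlier results of these data known. Alternatives covered scaling, test, filters, groups in the fit, prefix, replicate block, doublets, clustering, pseudocount and embryos left out. Gene models were from GENCODE M21 and promoters from RefSeq (GRCm38.p6). Intervals of fold changes are at 95%.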

Additional observations from a re-analysis of the deposited data

Results flagged for a closer look

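Het replicate 4 stood far from the 3 other Het embryos for Cdk2ap1 in 3 classes. It had 131.7 CPM in ganglionic eminence-like cells beside 223.9 to 229.1 CPM, 27.99 CPM in interneuron-like cells beside 46.5 to 46.7 CPM, and 220.9 CPM in subventricular zone-like cells beside 378.6 to 390.2 CPM. For Cdk2ap2 it stood apart over all cells, at 27.6 CPM beside 31.9 to 32.4 CPM. Het replicate 3 stood apart for Cdk2ap2 in radial glia-like cells, at 58.1 CPM beside 51.6 to 52.1 CPM. These 5 came from 48 sets of 4 Het values. The rule used would flag about 1 in 20 sets of independent, normally spread values. The sets share the same 4 embryos, so they are not independent and that rate does not apply directly. Het replicate 4 is also the Het library with the WT prefix, and its mitochondrial share, 3.60%, was with that of the WT libraries. Prefix and embryo cannot be told apart for it.

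The KO effect differed between a class and layer II-IV-like neurons in 11 of 28 tests of the difference in log2 fold change, in which 4.07 to 12.1% of all genes were called. Gatad2a differed by -0.45 in ganglionic eminence-like and -0.43 in radial glia-like cells. Gatad2b differed by 0.33 in ganglionic eminence-like, 0.39 in interneuron-like, 0.56 in striatal inhibitory-like and 0.27 in subventricular zone-like cells. Cdk2ap1 differed by -0.29 in ganglionic eminence-like, -0.31 in layer V-VI-like, -0.35 in radial glia-like and -0.37 in subventricular zone-like cells, and Cdk2ap2 by -0.26 in subventricular zone-like cells. For Het against WT 0 of 28 differences were called by edgeR, with 5 at an unadjusted p under 0.05. These are differences of KO against WT and so also cross the prefix, whose part in them was not tested.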

How the results depend on the processing

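Over all cells, the KO calls of Gatad2a and Gatad2b against WT and against Het kept their direction and side of the threshold under every alternative run, as did the Het call of Gatad2b. The Het call of Cdk2ap1 (0.62) was lost with only the 2 groups fitted (0.62, adjusted p = 0.0814), at 3000 UMIs or more (0.60, adjusted p = 0.0539) and with doublets removed (0.61, adjusted p = 0.0564). The value ranged over 0.54 to 0.76 with 1 embryo left out. With prefix as a covariate the Het contrast is Het replicate 4 alone against WT, which gave 0.059. With prefix as a covariate the KO calls of Cdk2ap1 (0.35) and Cdk2ap2 (0.080) were lost. Cdk2ap1 in KO against Het became a call within 1 prefix (0.29). The 525 genes called in Het became 1002 with DESeq2, 159 with only 2 groups fitted, 41 with prefix as a covariate and 74 (without WT replicate 1) to 1829 (without Het replicate 4) with 1 embryo left out, and the 4326 in KO became 1467 with prefix as a covariate. The 970 in KO against Het ranged over 528 (without KO replicate 2) to 1060, with 593 without KO replicate 3. The cause of these shifts was not tested.

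Replicate numbers did not pair the embryos, since the correlations of same-numbered deviations ran from -0.30 to 0.12. The block also absorbs Het replicate 4, since no other group has that number, so its Het values rest on Het replicates 1 to 3. With the replicate block the count of Het calls became 1850, Cdk2ap2 in Het became a call (0.29, adjusted p = 0.00278, and 0.29 without Het replicate 4, in a range of 0.20 to 0.29), 7 further class effects became calls, and 3 uncalled ones changed sign: Cdk2ap1 in KO erythroid-like cells (0.071), and Gatad2a in Het ganglionic eminence-like (-0.011) and layer I-like cells (-0.070).

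Equal-weight means of Gatad2a changed sign in KO at resolution 0.8 (0.0021), with log2(CPM + 10) (0.056) and over the 8 neuron-like and progenitor-like classes (0.29), with -0.11 to 0.043 when 1 embryo was left out, and in Het over those 8 classes (0.050). Those of Cdk2ap2 in Het lost the smallest p at resolution 0.8 (0.16), with doublets removed (0.051), at 3000 UMIs or more (0.21) and over 8 classes (0.16), with 0.16 to 0.21 with 1 embryo left out, where the design no longer reaches 0.05. For the same reason of fewer embryos Gatad2b in Het, at -0.70 to -0.61, no longer passed.

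Within classes, the Het contrast of the fit with prefix as a covariate is Het replicate 4 alone against WT. For Cdk2ap1 it had the opposite sign to the Het group in erythroid-like (-0.47), ganglionic eminence-like (-0.13), interneuron-like (-0.011), layer I-like (-0.22), layer V-VI-like (-0.067), microglia-like (-0.46), radial glia-like (-0.11) and subventricular zone-like cells (-0.17). It did so for Cdk2ap2 in ganglionic eminence-like (-0.088) and subventricular zone-like cells (-0.15), and for Gatad2a in radial glia-like (0.080) and subventricular zone-like cells (0.16). In KO against WT the covariate reversed Cdk2ap1 in ganglionic eminence-like (-0.019), radial glia-like (-0.14), microglia-like (-0.20) and subventricular zone-like cells (-0.11), Cdk2ap2 in subventricular zone-like cells (-0.14) and Gatad2a in microglia-like cells (0.0018). Without integration Cdk2ap1 in KO erythroid-like cells (0.22) and Gatad2a in Het ganglionic eminence-like cells (-0.0025) changed sign. Leaving out 1 embryo changed the sign of 8 uncalled class effects. These were Cdk2ap1 in KO erythroid-like (-0.82 to 0.34) and Het microglia-like cells (-0.32 to 0.25), Gatad2a in Het ganglionic eminence-like (-0.028 to 0.096), layer I-like (-0.060 to 0.099), radial glia-like (-0.097 to 0.0075) and subventricular zone-like cells (-0.15 to 0.062), and Cdk2ap2 in Het ganglionic eminence-like (-0.050 to 0.11) and subventricular zone-like cells (-0.016 to 0.067). The 4 KO class calls of Gatad2a held with each embryo left out. At resolution 0.8, 2 class calls of Het against WT were lost, while the KO calls against WT that could be fitted there were kept. Without Het replicate 4, 4 uncalled Het differences from layer II-IV-like neurons changed sign: Cdk2ap2 in interneuron-like (-0.011) and radial glia-like cells (-0.0038), Gatad2a in layer V-VI-like (0.0041) and Cdk2ap1 in radial glia-like cells (0.052).

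Depth limits the small classes: microglia-like and mural-like cells numbered 20 to 45 in an embryo, and Gatad2a and Cdk2ap2 could not be fitted in erythroid-like cells.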

Other observations

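Over the WT embryos and 11 classes (33 points, log2(CPM + 1)), the genes whose pattern was most like that of each of the 4 were Msl3, Chchd7 and Dpm3 for Gatad2a, Usp48, Ccnt1 and Rbm25 for Gatad2b, Igsf8, Cecr2 and Qser1 for Cdk2ap1, and Cuta, Pdia3 and Hspa5 for Cdk2ap2. The highest Pearson r was 0.957 with Msl3, 0.987 with Usp48, 0.941 with Igsf8 and 0.981 with Cuta. The points share embryos and libraries, and the erythroid-like points are the lowest for each of the 4 genes. Without erythroid-like cells (30 points), a choice added after the data were seen, the nearest genes became Mtap, Bet1 and Prdx4 for Gatad2a and Proser1, Usp3 and Tmem39b for Gatad2b. Igsf8 and Qser1 remained for Cdk2ap1, joined by Hmgn5, and Cuta and Hspa5 remained for Cdk2ap2, joined by Ninj1.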
